A study of Mus musculus with 50 samples.

Results

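Gene expression in quadriceps, a fast-contracting thigh muscle, was compared with that in perigonadal white adipose tissue (pgWAT), an abdominal fat depot, across all genes in wild type (WT) mice. The comparison holds 19 of the 50 libraries of the study: the 10 whose titles name WT quadriceps of clamped mice and the 9 whose titles name WT pgWAT collected 1 h after clozapine N-oxide (CNO), joined by gene identifier. All 50 libraries came from male mice with hM3DGq, an engineered receptor that is activated by CNO. In Cre-positive mice (TG) the receptor is used to drive neurons expressing Gfral, the hindbrain receptor of the hormone GDF15, whereas the WT mice are Cre-negative. The study asked how this neuronal activation affects gene expression in a tissue whose glucose uptake fell (quadriceps) and one whose uptake rose (pgWAT). Here only WT libraries carry the comparison, so genotype does not differ between the tissues compared. All WT mice had received CNO at 1 mg/kg, and no CNO-free group is among the libraries.

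The tissues also differed in handling. Quadriceps came whole from mice that had been clamped, with neither the kind of clamp nor the time after CNO given in the labels, and pgWAT from mice 1 h after CNO. RNA was extracted with a kit for lipid-rich tissue from pgWAT and with a kit for fibrous tissue, including proteinase K, from quadriceps. Both sets were made with the same 3′ end library kit (QuantSeq FWD) with unique molecular identifiers and dual indices. Clamp, time, RNA kit and tissue cannot be told apart in this design. Replicates are numbered in the labels but not tied to separate mice, so every p-value refers only to the spread among these libraries, which may in part be technical. In bulk tissue, fewer cells of a type and less RNA per cell cannot be told apart either.

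Skeletal muscle fibres turn glucose, glycogen and fatty acids into the ATP that drives contraction, using myosin and actin filaments, calcium stores that release and take back calcium, and a creatine phosphate buffer. White adipocytes store fatty acids as triglyceride in a lipid droplet coated with perilipins, release them when catecholamines raise cAMP, and secrete hormones such as leptin and adiponectin. Both cell types take up glucose in response to insulin through the transporter GLUT4, encoded by Slc2a4. Many steps of energy metabolism are carried out by gene pairs of which one member predominates in muscle.

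The 10 quadriceps libraries held 959980 to 2613672 gene counts each, and the 9 pgWAT libraries 1403136 to 2837114. Of 27065 genes with at least 1 count, 10319 passed the filter on low counts and were tested. The first principal component took 86.9% of the variance and separated the tissues. Correlations of log expression between libraries were 0.934 to 0.970 within quadriceps, 0.923 to 0.978 within pgWAT and 0.436 to 0.515 between them. Quadriceps RNA was concentrated in fewer genes: a median of 318 genes (277 to 492) made up 50% of the gene counts, against 900 (800 to 1302) in pgWAT. Transcripts of the mitochondrial genome took a median of 10.7% of gene counts in quadriceps and 4.58% in pgWAT. The most abundant nuclear protein-coding transcripts were Ttn (2.58% of gene counts) and Myh4 (2.03%) in quadriceps and Lpl (1.05%) and Car3 (0.820%) in pgWAT.

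With edgeR's quasi-likelihood test at an adjusted p under 0.05, 4148 genes (40.2% of those tested) were higher in quadriceps and 4194 (40.6%) were higher in pgWAT. Called in one direction or the other were therefore 80.8% of tested genes, and this is the background for every list below. A stricter rule, a difference shown to exceed 2-fold, called 1871 genes (18.1%) for quadriceps and 2074 (20.1%) for pgWAT, together 38.2%. The libraries of the tissues did not overlap for 5034 genes (48.8%). Differences of at least 5 on the log2 scale were more numerous toward muscle, with 301 of the 2-fold calls against 100 toward fat. At most 3 counts in the other tissue were found for 89 of the muscle calls and 37 of the fat calls. These differences are log2(quadriceps/pgWAT), positive where quadriceps was higher, and levels are counts scaled to a common library total (CPM) after TMM scaling, which evens out the composition of the libraries. The choice matters: with library totals alone the median of all tested genes moved from 0.00 to −0.74, and with upper quartile factors to −0.31. The share of calls that were higher in quadriceps was 49.7%, against 38.9% with upper quartile factors and 25.2% with totals alone. For 2-fold calls these shares were 47.4%, 35.1% and 21.4%. Large differences could also be followed further toward muscle than toward fat. Over all libraries of a tissue, 3 counts correspond to 0.124 CPM in pgWAT and 0.288 CPM in quadriceps.

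The labels were borne out by the defining markers. The summed level of 8 muscle fibre markers was 50032 to 87089 CPM in quadriceps and 13.5 to 45.6 CPM in pgWAT, where Acta1, skeletal actin, was at 10.2 to 42.7 CPM (median 17.95). The summed level of 8 white adipocyte markers was 6103 to 10838 CPM in pgWAT and 522 to 1014 CPM in quadriceps, so whole quadriceps held these transcripts at a low level. Of the 8, 7 passed the 2-fold rule toward pgWAT, and the smallest log2 difference was -1.13. Whether the whole quadriceps sum came from adipocytes was not tested. Some libraries stood apart. Transcripts typical of liver reached 1774 CPM in pgWAT library 7 and 319 CPM in quadriceps library 2, and those of male tract epithelium 215 CPM in pgWAT library 9. Inducible heat shock transcripts reached 3567 CPM in quadriceps library 2 and 2008 CPM in library 10, against 63.0 to 358 CPM in the other 8. Ucp1, the uncoupling protein of brown fat, reached 81.9 and 81.0 CPM in quadriceps libraries 3 and 6. Leaving out 11 libraries (over 200 CPM of liver, 40 CPM of male tract, 1000 CPM of heat shock or 50 CPM of Ucp1 transcripts) kept 5 quadriceps and 3 pgWAT libraries and gave 3660 and 3940 calls and 1785 and 2017 2-fold calls, out of 10505 genes tested. It moved the fold difference by over 1.5 times for 40 of the 160 tested genes considered for the text, ended the calls of Atp2a2 and Nr3c1 (0.11 without those libraries, 0.27 with them), and turned the sign of Prkar1a, which was called in neither fit (−0.03 and 0.08).

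Promoter sequences were searched for 7 short motifs. The MEF2 site is described first because its share differed by the largest ratio among the 6 motifs found in both gene groups, a choice made after the shares were seen. A MEF2 site, the A/T-rich element bound by the myocyte enhancer factor 2 family, was searched by its 10-base consensus on both strands in the 250 bases before each annotated start (RefSeq, GRCm38.p6). It was present in 32 of 1458 promoters (2.19%) of genes over 2-fold higher in quadriceps, in 5 of 1545 (0.324%) of those over 2-fold higher in pgWAT, in 51 of 8015 (0.636%) of all tested genes and in 140 of 27025 (0.518%) of all genes with a promoter in the table. The CArG box, the 10-base element of serum response factor, was present in 1.44%, 0.971%, 1.14% and 1.40% of the same groups. The E-box CANNTG was present in 58.7%, 61.4%, 56.1% and 66.04%, and its form CAGCTG, which is counted in both, in 13.7%, 15.3%, 11.7% and 12.8%. TATAAA was present in 8.09%, 7.31%, 6.53% and 12.97%, and TTGCNNAA, a C/EBP pattern, in 7.61%, 8.35%, 7.30% and 9.55%. The nuclear receptor element DR1, a pair of AGGTCA repeats spaced by any 1 base, was held by 10 promoters in the table, 1 of them of a gene over 2-fold higher in quadriceps. Among the genes named by rule or below, 182 of 243 had a promoter and 8 held a MEF2 site: Xirp2, Ttn, Ppp1r3a, Clcn1, Myoz2, Hspb3, Atf3 and Ckb, the last of which was lower in quadriceps. The 4 muscle promoters with the largest differences among these are shown, with Acta1 for its CArG box and the promoters of the adipocyte genes Adipoq and Plin1, in which neither was found, for contrast. Capitals mark the MEF2 site or CArG box. A match of letters is a description only, and binding was not measured.
Xirp2, chr2:67445752-67446001, plus strand: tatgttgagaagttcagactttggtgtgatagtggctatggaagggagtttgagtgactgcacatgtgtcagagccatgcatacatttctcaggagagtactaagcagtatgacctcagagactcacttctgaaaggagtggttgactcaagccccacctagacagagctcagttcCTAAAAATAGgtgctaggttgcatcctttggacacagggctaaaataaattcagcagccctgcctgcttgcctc
Ttn, chr2:76982548-76982797, minus strand: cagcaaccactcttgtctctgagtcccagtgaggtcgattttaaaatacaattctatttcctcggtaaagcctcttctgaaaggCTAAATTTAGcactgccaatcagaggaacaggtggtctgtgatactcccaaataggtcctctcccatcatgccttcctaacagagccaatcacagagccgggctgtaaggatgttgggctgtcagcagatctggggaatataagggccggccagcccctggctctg
Ppp1r3a, chr6:14755275-14755524, minus strand: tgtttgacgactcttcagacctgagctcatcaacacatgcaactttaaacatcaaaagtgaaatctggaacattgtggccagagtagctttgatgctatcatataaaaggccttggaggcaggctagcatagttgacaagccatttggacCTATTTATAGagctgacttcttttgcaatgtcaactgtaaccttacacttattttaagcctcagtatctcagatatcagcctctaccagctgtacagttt
Clcn1, chr6:42286435-42286684, plus strand: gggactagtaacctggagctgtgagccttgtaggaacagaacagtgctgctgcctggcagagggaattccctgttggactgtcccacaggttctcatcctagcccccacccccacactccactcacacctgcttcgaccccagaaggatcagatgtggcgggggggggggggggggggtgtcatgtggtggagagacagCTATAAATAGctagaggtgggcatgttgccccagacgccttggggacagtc
Acta1, chr8:123894776-123895025, minus strand: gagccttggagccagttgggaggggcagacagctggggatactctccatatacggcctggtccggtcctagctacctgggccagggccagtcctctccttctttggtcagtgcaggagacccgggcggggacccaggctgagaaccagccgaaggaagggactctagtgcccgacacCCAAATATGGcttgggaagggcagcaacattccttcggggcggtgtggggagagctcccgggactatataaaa
Adipoq, chr16:23146286-23146535, plus strand: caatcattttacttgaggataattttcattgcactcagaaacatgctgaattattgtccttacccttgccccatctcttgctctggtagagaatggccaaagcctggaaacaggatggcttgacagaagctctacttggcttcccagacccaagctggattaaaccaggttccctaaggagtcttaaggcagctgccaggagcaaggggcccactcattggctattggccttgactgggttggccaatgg
Plin1, chr7:79732777-79733026, minus strand: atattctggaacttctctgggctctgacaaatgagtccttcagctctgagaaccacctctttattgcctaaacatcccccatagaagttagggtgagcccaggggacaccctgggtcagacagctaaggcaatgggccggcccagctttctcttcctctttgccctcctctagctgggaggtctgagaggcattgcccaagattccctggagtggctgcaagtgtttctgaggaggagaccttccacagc

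Genes of the contractile apparatus differed most. All 14 fast fibre sarcomere genes and all 15 sarcomere genes common to fibre types were higher in quadriceps by the 2-fold rule, with median log2 differences of 12.45 and 11.02 against 0.00 over all tested genes. Myh4, the myosin heavy chain of the fastest fibres, was at 15966 to 33455 CPM (median 27504) in quadriceps and 0.312 to 10.01 CPM (median 0.745) in pgWAT, a log2 difference of 13.67 ± 0.40 (SE; edgeR adjusted p = 3.02e-18). Ttn, the giant spring of the sarcomere, was at 17866 to 42149 CPM (median 34838) and 0 to 6.37 CPM (median 0.623) respectively, a difference of 14.35. Both were highest in pgWAT library 2, without which the differences were 14.97 for Myh4 and 15.18 for Ttn. The largest fitted difference among genes of at least 100 CPM was that of Xirp2, an actin-binding muscle protein, at 14.77 ± 0.28 (edgeR adjusted p = 5.25e-26; 15.97 without pgWAT library 2). Tnnt3, fast troponin T, and Pvalb, the calcium buffer parvalbumin, differed by 13.67 and 13.44 (14.11 for Pvalb without pgWAT library 2). Tcap, the cap of titin at the Z disc, was at 2329 to 3799 CPM (median 2808) in quadriceps with 3 counts in all 9 pgWAT libraries together, a ratio of 22860.0 (counting interval 7822 to 110857).

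The machinery that couples excitation to contraction and the myogenic regulators followed the same direction. All 14 tested coupling genes (median 8.98) and all 9 tested myogenic regulators of 12 listed (median 5.48) were higher in quadriceps by the 2-fold rule. Ryr1, the calcium release channel of the sarcoplasmic reticulum, was at 1290.3 to 1940.0 CPM (median 1478) in quadriceps and 0 to 1.53 CPM (median 0.499) in pgWAT (log2 difference 11.19 ± 0.20, edgeR adjusted p = 4.44e-27). Clcn1, the chloride channel that stabilises the fibre's resting potential, was at 134 to 286 CPM (median 187) with 2 counts in pgWAT. Among transcription factors, Myod1 was at 32.8 to 116 CPM (median 52.4) in quadriceps with no count in pgWAT, which makes it at least 470.0-fold higher against a limit of 3 counts over the 9 libraries. Myf6, the regulator that persists in adult fibres, was at 106 to 297 CPM (median 163) with 1 count in pgWAT. Mstn, myostatin, a secreted brake on muscle growth, was at 104 to 212 CPM (median 141) and 0 to 4.01 CPM (median 0.749) (log2 difference 6.50).

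Slow fibre genes were less uniform, and 6 of 12 passed the filter: 4 were higher in quadriceps and 2 in pgWAT. Tpm3, a slow fibre tropomyosin that other cells also make, was at 22.3 to 75.1 CPM (median 34.6) in quadriceps and 82.2 to 113.9 CPM (median 107) in pgWAT, a log2 difference of -1.43, and the libraries did not overlap. Atp2a2, the calcium pump of slow fibres and of non-muscle cells, differed by -0.40 with overlapping libraries, a call that was lost under 12 of the alternatives. Of these, 7 left out a single library (quadriceps 2, 3, 4, 8 or 10, or pgWAT 1 or 9) and gave −0.33 to −0.39. Csrp3 and Myoz2, Z disc proteins of slow and cardiac muscle, had no count in pgWAT and were at least 989-fold and 635-fold higher in quadriceps. Slow genes varied strongly among quadriceps libraries. Myl3, the slow ventricular light chain, ran from 3.31 CPM in library 4 to 317 CPM in library 9, with 5 libraries at 159 CPM or above and the other 5 at 39.4 CPM or below. Tnnt1, Myh7 and Myl2, slow troponin T, myosin heavy chain and light chain, were each highest in quadriceps library 7, at 70.4, 41.1 and 46.9 CPM, against ranges of 1.65 to 15.7, 0 to 15.7 and 1.65 to 31.4 CPM in the other 9. These 4 genes were singled out after their values were seen.

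**Figure D1:**
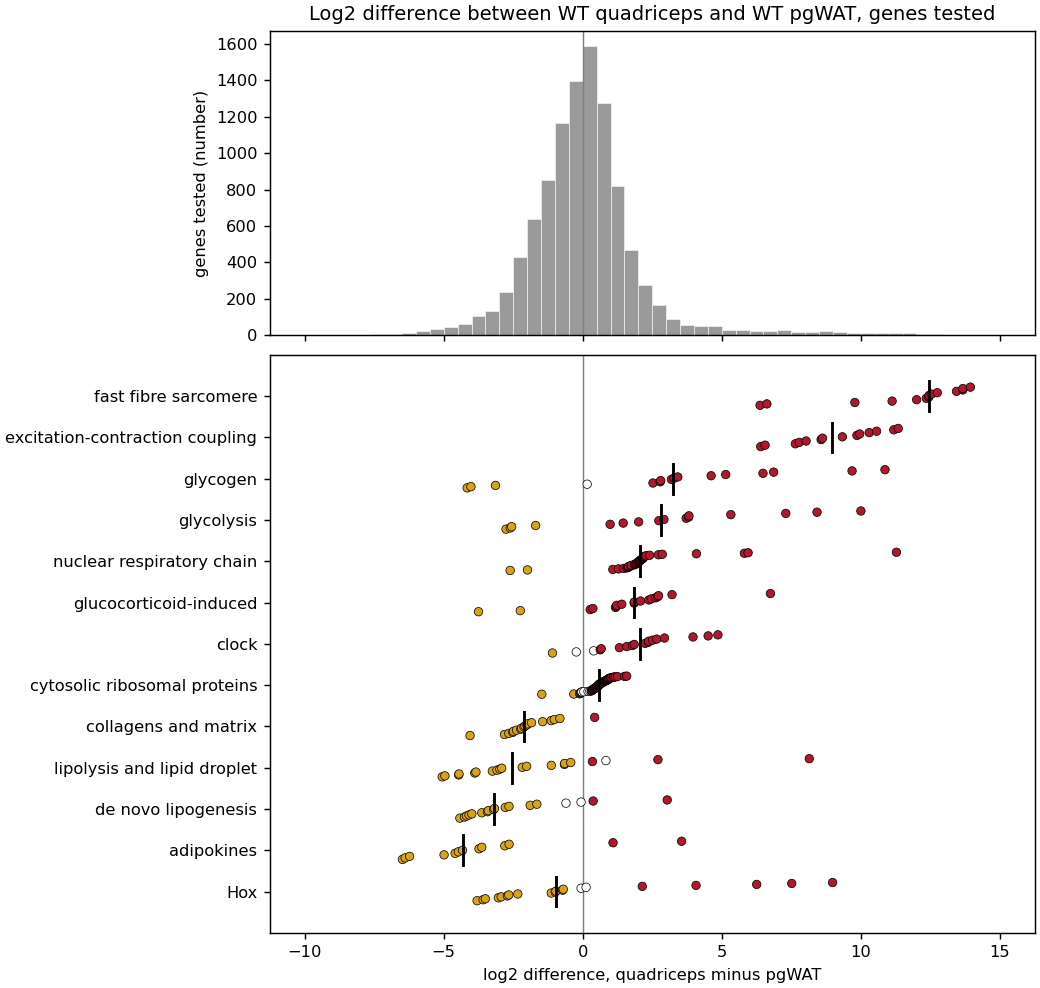
Histogram of the log2 difference, quadriceps over pgWAT, of the 10319 tested genes (top) and the members of 13 gene lists on the same axis (bottom; each point a gene, filled where its adjusted p was under 0.05, red for higher in quadriceps and gold for higher in pgWAT, white otherwise; bars are list medians). The fast fibre sarcomere list lies far to the right with a median of 12.45, and adipokines lie to the left with a median of -4.32.

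Glucose uptake genes went both ways. Slc2a4 (GLUT4; chr11:69942539-69948188 on GRCm38) was at 692 to 1015 CPM (median 781) in quadriceps and 103 to 177 CPM (median 152) in pgWAT, a log2 difference of 2.46 ± 0.10 (edgeR adjusted p = 2.02e-18). Every quadriceps library was at least 692 CPM and every pgWAT library at most 177 CPM. Slc2a1, the basal transporter GLUT1, was at 9.55 to 36.5 CPM (median 24.1) and 12.3 to 31.5 CPM (median 16.02), overlapped between the tissues and was not called (log2 difference 0.38, edgeR adjusted p = 0.0627). Leaving out pgWAT library 9 (0.52) or quadriceps library 9 (0.48), or using the 6 h pgWAT libraries (1.00), made it a call toward quadriceps, whereas with library totals alone it was −0.36. Hk2, the insulin-regulated hexokinase that traps glucose, was at 597 to 878 CPM (median 826) and 67.2 to 138 CPM (median 114.4) (difference 2.83), and Tbc1d1, a Rab regulator of GLUT4 vesicles in muscle, differed by 3.05. Trarg1, a protein of GLUT4 vesicles in fat, went the other way at 0.955 to 8.43 CPM (median 3.31) in quadriceps and 79.7 to 149.6 CPM (median 133) in pgWAT (difference -4.95). Of 10 listed uptake genes, 6 were higher in quadriceps, 2 in pgWAT and 2 in neither, with a median of 0.78, which became 0.04 with library totals alone (4 and 4 genes).

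Glycolytic genes were largely higher in muscle. Of 16 tested members (19 listed), 12 were higher in quadriceps and 4 in pgWAT, with a median of 2.83. Eno3, muscle enolase, was at 2167 to 2779 CPM (median 2379.5) in quadriceps and 0 to 5.24 CPM (median 1.71) in pgWAT (log2 difference 10.00 ± 0.21, edgeR adjusted p = 1.62e-24). Pfkm, muscle phosphofructokinase, was at 1332 to 1965 CPM (median 1541) and 3.37 to 13.98 CPM (median 9.10) (difference 7.30). The other phosphofructokinases were higher in pgWAT, Pfkp by -2.76 and Pfkl by -2.61. Pgam2, muscle phosphoglycerate mutase, was at 858 to 2051 CPM (median 1067) in quadriceps; in pgWAT it was at 20.98 CPM in library 9 and at most 0.312 CPM in the other 8, and the difference of 8.43 was 12.70 without library 9. Ldha, which makes lactate from pyruvate, was at 1937 to 2841 CPM (median 2484) and 551 to 686 CPM (median 611) (difference 2.01), and Ldhb, its partner subunit, was also higher in quadriceps (1.45). Gapdh, often used as a reference gene, was at 52.5 to 175 CPM (median 90.9) in quadriceps and 0 to 4.25 CPM (median 1.87) in pgWAT. It has many processed pseudogenes, its difference was 5.33 here and 0.11 with the 6 h pgWAT libraries, where it was not called (edgeR adjusted p = 0.643), and its level is therefore uncertain.

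Glycogen metabolism showed the same separation by isoform. Of 16 genes, 12 were higher in quadriceps, 3 in pgWAT and 1 in neither (median 3.24). Pygm, muscle glycogen phosphorylase, was at 1637 to 2946 CPM (median 2381) in quadriceps and 1.53 to 4.86 CPM (median 2.68) in pgWAT (log2 difference 9.69 ± 0.17, edgeR adjusted p = 2.07e-27), whereas Pygl and Pygb, the liver and brain enzymes, were higher in pgWAT by -4.16 and -4.02. Gys1, muscle glycogen synthase, differed by 2.80, and Gys2, the liver enzyme, by -2.78. Ppp1r3a and Ppp1r3c, subunits that bring protein phosphatase 1 to glycogen, were both higher in quadriceps, by 10.87 (11.73 without pgWAT library 9) and 6.87. Phka1, the muscle regulatory subunit of phosphorylase kinase, was at 1151 to 1499 CPM (median 1309.7) and 11.6 to 18.8 CPM (median 14.7).

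The phosphagen system, which buffers ATP during contraction, held the muscle creatine kinase Ckm (chr7:19404776-19422841 on GRCm38). Ckm was at 4208 to 5574 CPM (median 4732) in quadriceps and 0 to 0.623 CPM (median 0) in pgWAT, a log2 difference of 14.08 ± 0.19 (edgeR adjusted p = 4.01e-29). Ckb, the brain-type enzyme, was higher in pgWAT at 22.9 to 116 CPM (median 42.1) against 0 to 9.64 CPM (median 4.09) (difference -3.55). Ampd1, muscle AMP deaminase, was at 688 to 901 CPM (median 812) in quadriceps with 1 count in pgWAT. Of 10 tested members, 6 were higher in quadriceps and 4 in pgWAT.

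**Figure D2:**
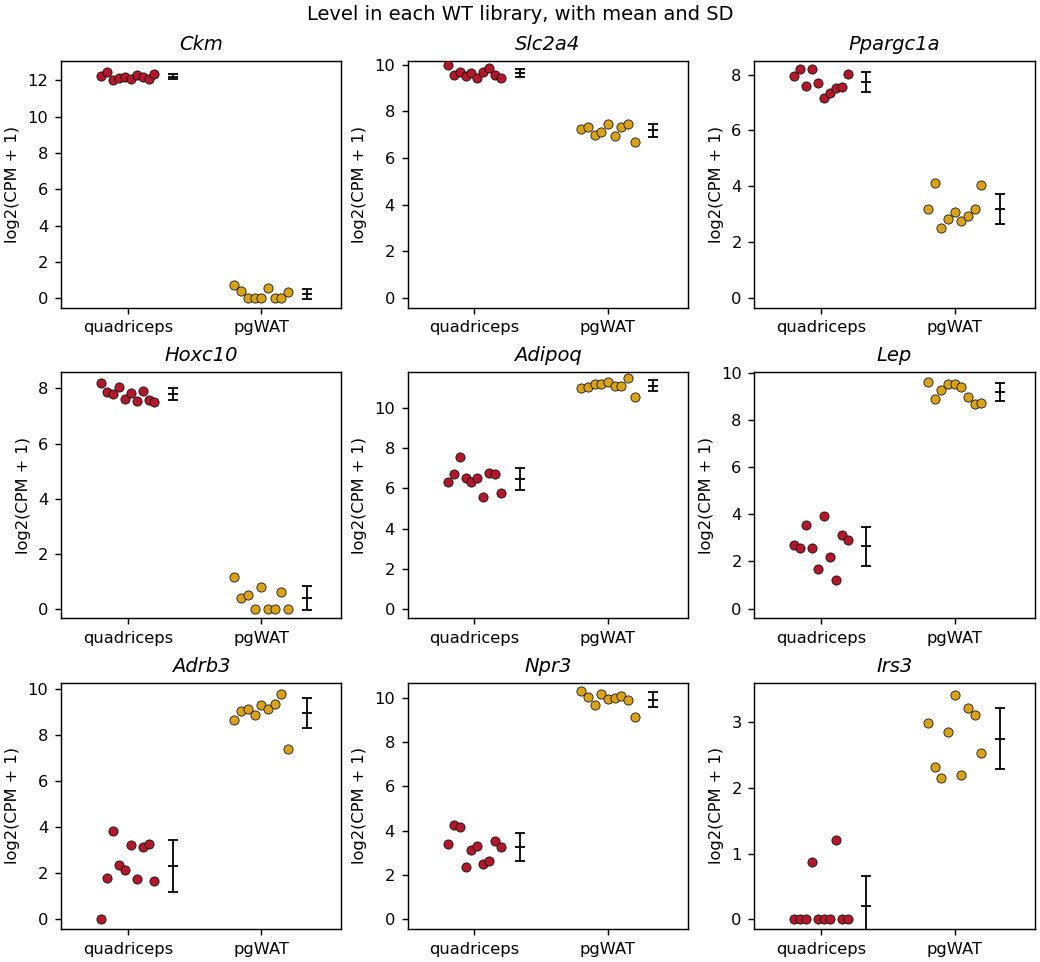
Expression of 9 genes in each of the 10 quadriceps and 9 pgWAT libraries as log2(CPM + 1), with the mean and SD of each tissue. Ckm, Slc2a4, Ppargc1a and Hoxc10 are higher in every quadriceps library than in any pgWAT library, and Adipoq, Lep, Adrb3, Npr3 and Irs3 are lower in every one.

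Paired isoforms were compared within each library, as the log2 ratio of the member known from muscle to its counterpart (each with 1 CPM added), so that the scaling of the library largely cancels. Of 22 pairs, 21 could be used: Cpt1b, the muscle carnitine palmitoyltransferase, had 0 counts in all 19 libraries. Gm44502, annotated on the same strand over the whole span of Cpt1b, also had 0, and whether reads were lost as shared between them was not tested. All 21 ratios were higher in quadriceps (exact two-sided permutation test over libraries, Benjamini-Hochberg over 21 pairs). For 20 pairs the libraries did not overlap and p was 2.17e-05, the smallest that 10 against 9 libraries can give. The pairs had been chosen for known muscle predominance, so their direction is a check of the tissues and not a result of its own. What the values add is how far each pair shifted, and these sizes depend on the 1 CPM added where a member is near 0. Creatine kinase (Ckm over Ckb) shifted most, from -6.55 to -4.43 in pgWAT to 8.63 to 12.31 in quadriceps, a difference of 15.46 ± 0.41 (SE). Next came glycogen phosphorylase (Pygm over Pygl, 13.73 ± 0.32), cytochrome c oxidase subunit 6a (Cox6a2 over Cox6a1, 12.55 ± 0.18) and the calcium pumps (Atp2a1 over Atp2a2, 12.52 ± 0.25). With 0.5 CPM and 5 CPM added Ckm/Ckb was still first, at 16.55 and 12.39, followed by Pygm/Pygl at 14.03 and 12.19.

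Other pairs shifted less. Glucose transporters (Slc2a4 over Slc2a1) ran from 1.68 to 3.45 in pgWAT to 4.31 to 6.17 in quadriceps, a difference of 2.08 ± 0.24. Lactate dehydrogenase (Ldha over Ldhb) shifted by 0.58 ± 0.14 (exact permutation adjusted p = 0.00108), with overlapping libraries. The glycogen-targeting subunits (Ppp1r3a over Ppp1r3c) shifted by 2.12 ± 0.19 with both genes far higher in muscle and 6 counts of Ppp1r3a in all pgWAT libraries. The shift was 2.97 with 0.5 CPM added and 0.17 with 5 CPM added, when the pair was no longer called (exact permutation adjusted p = 0.292). In 14 pairs both members were called on their own, the muscle member toward quadriceps and its counterpart toward pgWAT. These include Atp2a1/Atp2a2, of which the Atp2a2 call was lost in the alternatives given above.

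**Figure D3:**
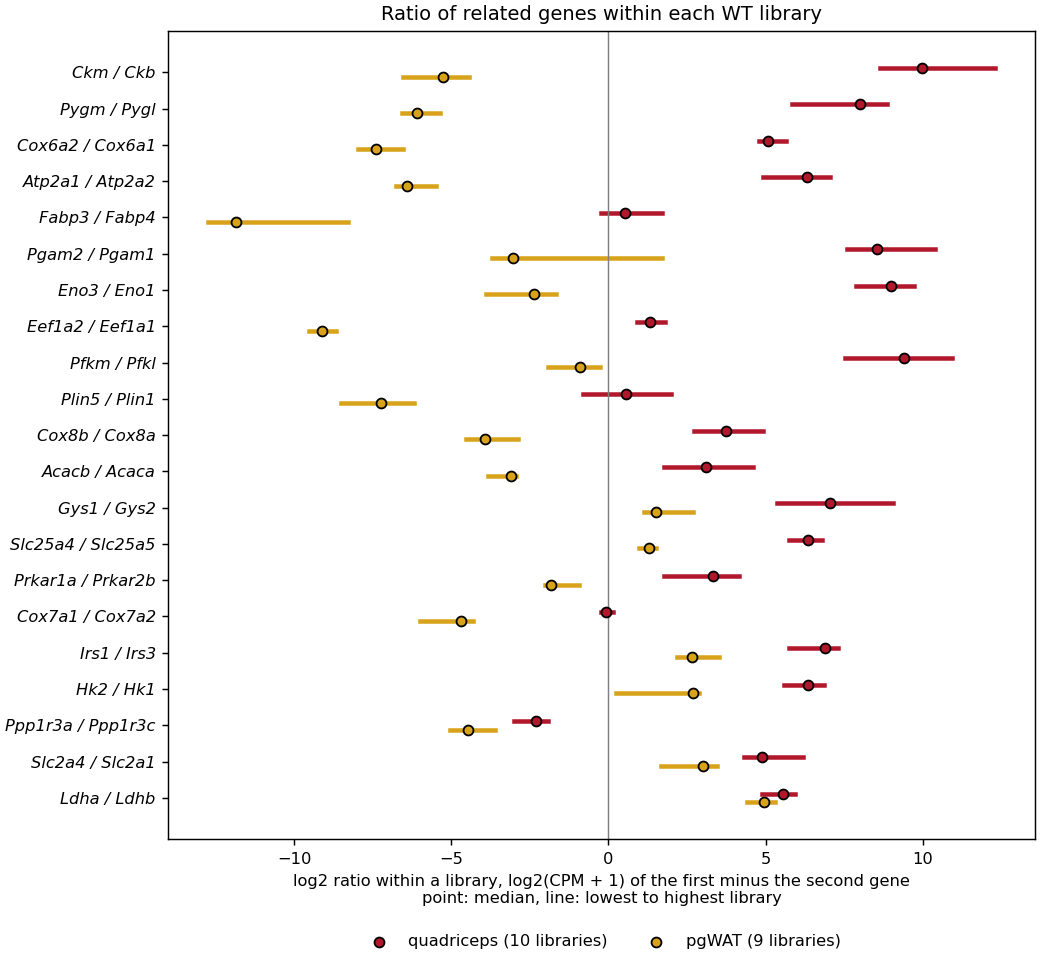
Log2 ratio of the muscle member to its counterpart for 21 gene pairs, as the median and the lowest to highest library in quadriceps (10 libraries) and pgWAT (9 libraries). The tissues separate for all pairs except Ldha/Ldhb, whose ranges overlap.

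Mitochondrial genes were higher in quadriceps almost throughout. Of 25 genes of pyruvate dehydrogenase and the citrate cycle, 24 were higher in quadriceps and 1 in pgWAT (median 1.89). Of 37 nuclear genes of the respiratory chain, 35 were higher in quadriceps and 2 in pgWAT (median 2.04). The exceptions were isoforms whose muscle counterparts were high: Cox6a1 (-2.61) and Cox8a (-1.99) were higher in pgWAT, and Cox6a2 (11.28) and Cox8b (5.81), the striated muscle subunits of cytochrome c oxidase, were higher in quadriceps. Cox7a1, the muscle subunit 7a, differed by 5.95, and Cox7a2, the general one, by 1.08. Cox6a2 was at 1109.8 to 1565 CPM (median 1396) in quadriceps and 0 to 0.857 CPM (median 0.561) in pgWAT (edgeR adjusted p = 1.18e-28).

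Transcripts of the mitochondrial genome itself also differed, as far as they were counted. Of its 13 protein-coding genes 6 had at most 6 counts over all 19 libraries, among them mt-Co2, mt-Co3 and mt-Atp6, which are abundant transcripts in most tissues. Whether their reads were lost was not tested, and the shares and medians of mitochondrial transcripts rest on what was counted. All 7 tested members of the 13 protein-coding genes were higher in quadriceps, with a median of 2.21. mt-Co1, a catalytic subunit of cytochrome c oxidase, was at 4948 to 6979 CPM (median 5816) in quadriceps and 524 to 781 CPM (median 646) in pgWAT (log2 difference 3.14). mt-Cytb, cytochrome b, was at 12783 to 18912 CPM (median 17008) and 2594 to 4449.9 CPM (median 3681) (difference 2.21). With the 6 h pgWAT libraries, made with the standard kit, the median of this list was 0.80 and mt-Cytb was at −0.24. Ppargc1a, the coactivator PGC-1α that drives mitochondrial biogenesis, was at 142 to 292 CPM (median 199.8) in quadriceps and 4.71 to 16.4 CPM (median 7.42) in pgWAT (difference 4.54 ± 0.21, edgeR adjusted p = 2.98e-15). Slc25a4, the adenine nucleotide carrier of muscle mitochondria, was higher in quadriceps by 4.13 and Slc25a5, its counterpart, higher in pgWAT by -0.85.

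The kinases that switch off pyruvate dehydrogenase differed by isoform. Pdk4, induced by fasting and fatty acids, was at 54.8 to 504 CPM (median 77.5) in quadriceps and 0.25 to 4.49 CPM (median 1.48) in pgWAT (difference 6.75 ± 0.66, edgeR adjusted p = 2.21e-08). Its quadriceps levels were uneven, with 504, 316 and 221 CPM in libraries 9, 10 and 4 and 54.8 to 96.2 CPM in the other 7. Pdk2, the widely expressed kinase, was higher in quadriceps by 3.54 and Pdk3 was higher in pgWAT by -2.90. Got1, the cytosolic enzyme of the malate-aspartate shuttle, was at 651 to 873 CPM (median 705) and 7.48 to 30.5 CPM (median 16.4) (difference 5.33).

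Fatty acid oxidation genes differed much less than those of the respiratory chain. Of 22 tested members, 14 were higher in quadriceps, 5 in pgWAT and 3 in neither, with a median of 0.65 that was −0.08 with library totals alone and −0.06 with the 6 h pgWAT libraries. Only 5 passed the 2-fold rule toward quadriceps and 2 toward pgWAT. Fabp3, the fatty acid binding protein of heart and muscle, was at 749 to 1168 CPM (median 928) in quadriceps and 0 to 7.74 CPM (median 0.509) in pgWAT (difference 8.88 ± 0.35, edgeR adjusted p = 2.66e-15, and 10.05 without pgWAT library 9). Ucp3, a muscle uncoupling protein homologue, differed by 4.40 and Hadha, part of the trifunctional protein of beta-oxidation, by 1.55. Toward pgWAT, Cd36, the fatty acid translocase, was at 1021 to 2144 CPM (median 1726) against 329 to 546 CPM (median 388) in quadriceps (difference -2.10), and Cpt1a, the liver-type carnitine palmitoyltransferase, differed by -2.26.

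Lipid synthesis and storage genes were higher in pgWAT. Of 18 genes of de novo lipogenesis, 14 were higher in pgWAT, all by the 2-fold rule, 2 in quadriceps and 2 in neither (median -3.19). Fasn, fatty acid synthase, was at 19.5 to 211 CPM (median 36.8) in quadriceps and 859 to 1719.6 CPM (median 1451) in pgWAT (log2 difference -4.42 ± 0.42, edgeR adjusted p = 1.46e-08), and its quadriceps levels were highest in libraries 3 and 6 (211 and 155 CPM), where Ucp1 was also highest. Scd1, stearoyl-CoA desaturase, was at 121 to 543 CPM (median 212) and 3394 to 5805 CPM (median 4479.9) (difference -4.25), and Thrsp, a lipogenic regulator, differed by -4.18. The acetyl-CoA carboxylases divided: Acaca, which supplies malonyl-CoA for synthesis, was higher in pgWAT by -3.21, whereas Acacb, whose product restrains fatty acid entry into mitochondria, was at 150.4 to 252 CPM (median 189) in quadriceps and 14.1 to 33.4 CPM (median 20.9) in pgWAT (difference 3.04).

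Triglyceride synthesis and droplet genes followed. Of 13 tested synthesis genes, 10 were higher in pgWAT and 2 in quadriceps (median -2.39). Of 20 genes of lipolysis and the lipid droplet, 16 were higher in pgWAT and 3 in quadriceps (median -2.55). Dgat2, which adds the last fatty acid of triglyceride, was at 25.6 to 69.9 CPM (median 42.5) in quadriceps and 818 to 1499 CPM (median 1033) in pgWAT (difference -4.65), and Agpat2, an earlier acyltransferase, differed by -4.58. Pck1, whose product feeds glyceroneogenesis, ranged widely in both tissues, 2.75 to 153 CPM (median 45.5) in quadriceps and 133 to 1538 CPM (median 792) in pgWAT, and overlapped. Lpin1, the phosphatidate phosphatase, went toward quadriceps by 1.69. On the droplet, Plin1 was at 12.9 to 63.9 CPM (median 25.6) in quadriceps and 678 to 1279.5 CPM (median 999) in pgWAT (difference -4.96) and Cidec, which fuses droplets, differed by -5.06. Lipe, hormone-sensitive lipase, was at 25.96 to 80.7 CPM (median 41.6) and 461 to 778 CPM (median 646) (difference -3.88). The droplet genes of muscle went the other way: Plin5, the perilipin of oxidative tissue, differed by 2.704, and Fitm1, a droplet-forming protein of muscle, was at 76.4 to 142 CPM (median 106) in quadriceps and 0 to 1.25 CPM (median 0) in pgWAT. Fabp4, the adipocyte fatty acid binding protein, was at 2701 to 7187 CPM (median 5750.0) in pgWAT and 304 to 1083 CPM (median 584) in quadriceps.

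Adipokines and the adipocyte transcription programme were higher in pgWAT with a few exceptions. Of 13 tested adipokines, 11 were higher in pgWAT and 2 in quadriceps (median -4.32). Adipoq, adiponectin, was at 46.9 to 186 CPM (median 89.98) in quadriceps and 1522 to 2929.8 CPM (median 2228) in pgWAT (difference -4.59 ± 0.19, edgeR adjusted p = 2.52e-16). Lep, leptin, was at 1.31 to 13.99 CPM (median 5.23) and 401 to 780.2 CPM (median 613) (difference -6.39 ± 0.23, edgeR adjusted p = 2.41e-17). Neither gene overlapped between the tissues, and the mean level in quadriceps was 4.16% of that in pgWAT for Adipoq and 1.04% for Lep. Retn, resistin, and Rbp4, a retinol carrier, differed by -6.23 and -6.48. Cfd, the serine protease adipsin, differed less, by -2.80, which left its quadriceps mean at 14.4% of the pgWAT mean. Cxcl14, a chemokine, was higher in quadriceps at 78.3 to 141 CPM (median 119.7) against 4.49 to 20.5 CPM (median 9.66).

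Among 11 adipocyte transcription factors, 7 were higher in pgWAT and 4 in quadriceps (median -1.26). Pparg, the master regulator of adipocyte formation, was at 0 to 6.69 CPM (median 2.91) in quadriceps and 17.5 to 119 CPM (median 63.8) in pgWAT (difference -4.38), and Cebpa, its partner, differed by -4.80. Cebpb and Cebpd, earlier-acting and stress-responsive members of the same family, were higher in quadriceps, by 1.89 and 2.38. Brown adipocyte genes gave no single direction: of 7 tested, 3 were higher in quadriceps, namely Ppargc1a, Cox7a1 and Cox8b, which muscle also uses, and Kcnk3, a potassium channel, was higher in pgWAT by -3.66. The median was 0.83, and 2.40 without the libraries that stood apart. Ucp1 did not pass the filter, which asks for counts in enough libraries, and was not tested. It had 3 counts over all pgWAT libraries and 0 to 81.9 CPM in quadriceps. Quadriceps libraries 3, 6, 9 and 5 held 81.9, 81.0, 33.4 and 13.5 CPM, the other 6 at most 1.65 CPM. Cidea, a droplet protein of brown fat chosen here after its values were seen, was highest in the same libraries 3, 6 and 9 (43.4, 34.8 and 12.4 CPM). Whether tissue adhering to the muscle contributed to these transcripts was not tested.

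**Figure D4:**
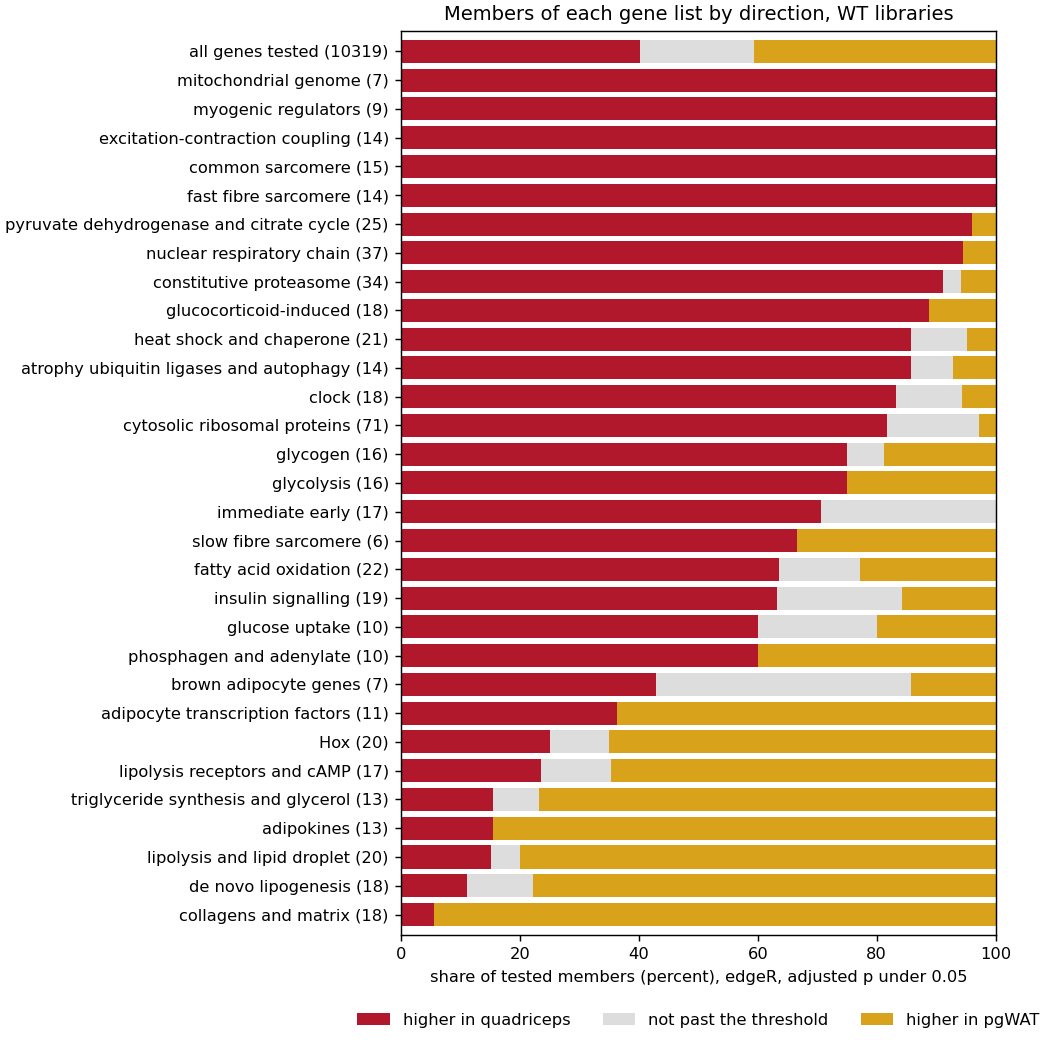
Share of tested members of 30 gene lists, and of all tested genes, that were higher in quadriceps, higher in pgWAT or not called at an adjusted p of 0.05. Over all genes the shares are 40.2% and 40.6%; the fast fibre sarcomere, common sarcomere and coupling lists are wholly on the quadriceps side, and 17 of 18 collagens and matrix genes are on the pgWAT side.

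Among the 30 programme lists, receptors and cAMP effectors of lipolysis had the lowest median after the adipokines. Of 17 tested members of 21, 11 were higher in pgWAT, 4 in quadriceps and 2 in neither (median -4.04). Npr3 (chr15:11839896-11907287 on GRCm38), the clearance receptor of natriuretic peptides, was at 4.13 to 18.3 CPM (median 8.78) in quadriceps and 557 to 1249 CPM (median 1002) in pgWAT (difference -6.72 ± 0.19, edgeR adjusted p = 6.73e-21). Adrb3, the adrenergic receptor of adipocytes, was at 0 to 13.3 CPM (median 3.75) and 169 to 882 CPM (median 551) (difference -6.55 ± 0.35, edgeR adjusted p = 8.82e-13). Outside this list, Tshr, the thyrotropin receptor, and Ffar2, a receptor of short-chain fatty acids, differed by -6.90 (-7.50 without quadriceps library 6) and -6.61. Among the members, Ptger3, a prostaglandin E2 receptor that lowers cAMP, differed by -5.49. Hcar2, the niacin receptor, had 1 count in quadriceps and 7.49 to 20.8 CPM (median 11.9) in pgWAT, a ratio of 136 (counting interval 24.2 to 5389) in favour of pgWAT. Downstream, Prkar2b, the regulatory subunit of protein kinase A in fat, was at 14.1 to 75.9 CPM (median 24.4) in quadriceps and 459.7 to 1068 CPM (median 878) in pgWAT (difference -4.81). Prkar1a, the general subunit, was at 246 to 283 CPM (median 261) and 232 to 265 CPM (median 246) and was not called (difference 0.08, edgeR adjusted p = 0.225), with a sign that turned under other scalings. Pde4d, a cAMP phosphodiesterase, was higher in quadriceps by 4.57.

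Insulin signalling genes went both ways. Of 19 tested, 12 were higher in quadriceps, 3 in pgWAT and 4 in neither, and 4 and 2 passed the 2-fold rule. The share called in one direction or the other was near the 80.8% of all tested genes. By direction, 40.2% of all tested genes were higher in quadriceps and 40.6% in pgWAT, and 18.1% and 20.1% passed the 2-fold rule. The median of 0.44 was −0.30 with library totals alone, when 6 were higher in quadriceps and 10 in pgWAT. Insr, the insulin receptor, was at 82.1 to 109 CPM (median 99.2) in quadriceps and 53.1 to 84.7 CPM (median 72.3) in pgWAT, with overlap. Its difference of 0.44 ± 0.10 (edgeR adjusted p = 0.000167) was 0.14 and not called with upper quartile factors. With library totals alone it was −0.30 and called toward pgWAT (edgeR adjusted p = 0.00494). Irs1 and Irs2, the main insulin receptor substrates, were higher in quadriceps by 1.42 and 1.66. Irs3, a substrate of rodent adipocytes, did not pass the filter and is not among the 19 tested. It was at 3.43 to 9.65 CPM (median 6.17) in pgWAT with 2 counts in quadriceps. The ratio was 30.99 toward pgWAT (counting interval 8.43 to 258, which leaves out the spread among libraries). Foxo1, the transcription factor that insulin keeps out of the nucleus, was higher in quadriceps by 1.66. Pik3cb, a catalytic subunit of phosphoinositide 3-kinase, was higher in pgWAT (difference -1.58).

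Hormone- and stress-responsive genes were mostly higher in quadriceps of clamped mice than in pgWAT 1 h after CNO. The glucocorticoid list holds genes known to be induced by glucocorticoids and also the gene of the receptor, Nr3c1. Of 18 tested members, 16 were higher in quadriceps, Nr3c1 among them, and 2 in pgWAT (median 1.85). With library totals alone these counts were 12 and 4, and the median was 1.104. Sgk1, a kinase induced by the hormone, was at 431 to 537 CPM (median 474) in quadriceps and 34.7 to 74.5 CPM (median 49.9) in pgWAT (difference 3.21). Ddit4, a brake on mTORC1, and Zbtb16, a transcription factor, differed by 2.69 and 2.72. Angptl4, an inhibitor of lipoprotein lipase, went toward pgWAT by -3.75. Hsd11b1, which regenerates active glucocorticoid, was also higher in pgWAT (-2.25). Nr3c1, the glucocorticoid receptor, was at 164 to 257 CPM (median 209.6) and 101 to 215 CPM (median 179), with overlap. Its difference of 0.27 (edgeR adjusted p = 0.0303) was not called in 10 alternatives that kept its sign. With upper quartile factors it was −0.0331 and not called. With library totals alone it was −0.47 and called toward pgWAT (edgeR adjusted p = 0.000169). The 10 included leaving out quadriceps library 2, 6 or 10 or pgWAT library 5 or 9, with differences of 0.19 to 0.24.

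Clock genes were also uneven between the tissues. Of 18 tested, 15 were higher in quadriceps, 1 in pgWAT and 2 in neither (median 2.05). Nfil3, a repressor of D-box genes, was higher in quadriceps by 3.97. Dbp, a D-box activator with a strong daily rhythm, was at 31.5 to 67.5 CPM (median 46.4) and 2.49 to 16.3 CPM (median 5.57) (difference 2.94). Against the 6 h pgWAT libraries the Dbp difference was −1.12. The time of day of sampling was not given in the labels.

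Immediate early and heat shock genes led the genes that varied most among the quadriceps libraries. Of 17 tested immediate early genes, 12 were higher in quadriceps and 0 in pgWAT, whereas with library totals alone these counts were 7 and 4. Of all tested genes, 80.8% were called in one direction or the other and 48.8% did not overlap between the tissues. Of the 17 immediate early genes, 5 did not overlap. The median of 1.07 was 0.32 with library totals alone and 0.45 without the libraries that stood apart. Nr4a1, an orphan receptor induced by contraction and cAMP, was at 211 to 489.9 CPM (median 328) in quadriceps and 5.59 to 29.2 CPM (median 10.7) in pgWAT without overlap (difference 4.68), and its relative Nr4a3 differed by 4.06. Fos and Atf3, stress-induced transcription factors, overlapped, with Atf3 running from 10.5 to 458 CPM in quadriceps. Of 21 heat shock and chaperone genes, 18 were higher in quadriceps and 1 in pgWAT (median 1.97; 15 and 3 with library totals alone, and a median of 1.22). Hspb6, a small heat shock protein of muscle, was at 703 to 1582 CPM (median 1025) and 9.85 to 22.7 CPM (median 16.5) (difference 5.99), and Hspb3, another, was at 32.8 to 65.8 CPM (median 44.2) with 1 count in pgWAT. Hspa1a and Hspa1b, the inducible HSP70 genes, are near-identical copies whose reads can be split or lost. Hspa1a stood at 1490 and 820 CPM in quadriceps libraries 2 and 10 and at 24.9 to 130 CPM in the other 8, against 2.03 to 9.24 CPM in pgWAT. Without quadriceps library 2 the difference fell from 5.61 to 4.75 for Hspa1a, from 4.36 to 3.58 for Hspa1b and from 3.85 to 3.09 for Atf3. Without all the libraries that stood apart these were 3.67, 2.48 and 2.89, and Fos was at 1.84 in place of 3.23. Whether handling of the tissue contributed to these levels was not tested.

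**Figure D5:**
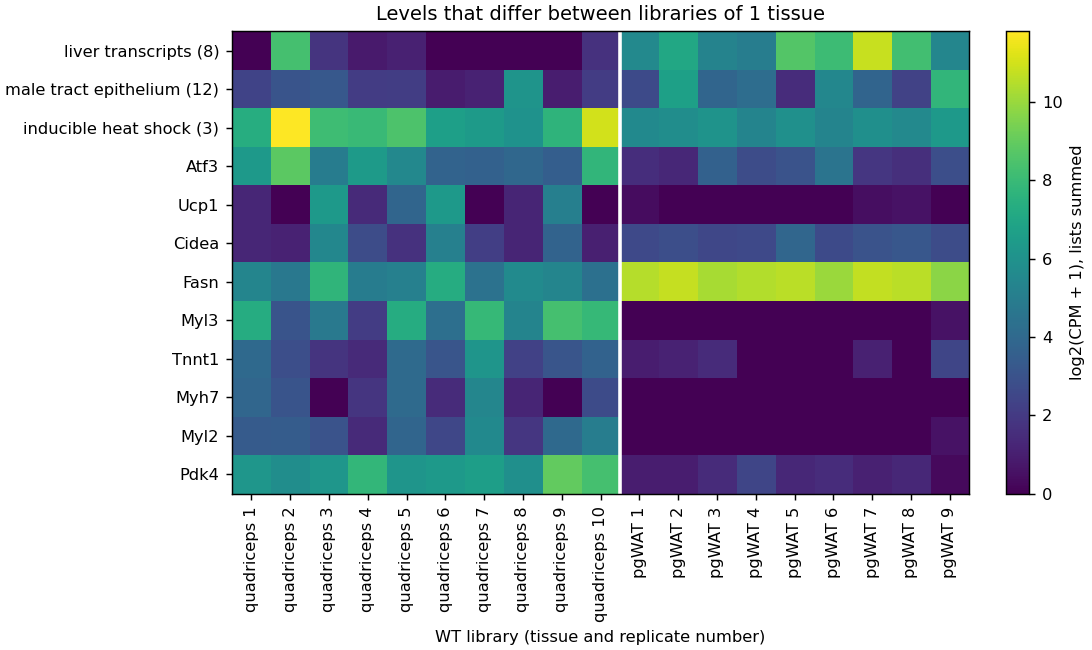
Heat map of log2(CPM + 1) in each library for summed liver, male tract and inducible heat shock transcripts and for single genes that vary within a tissue. Quadriceps libraries 2 and 10 are high for heat shock transcripts and Atf3, quadriceps libraries 3 and 6 for Ucp1, Cidea and Fasn, and the slow fibre genes Myl3, Tnnt1, Myh7 and Myl2 differ from one quadriceps library to the next.

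Genes of protein breakdown and synthesis also had muscle forms. Of 14 atrophy and autophagy genes, 12 were higher in quadriceps and 1 in pgWAT (median 1.69). Trim63 (MuRF1), a ubiquitin ligase of the sarcomere, was at 841 to 2077 CPM (median 1299.8) in quadriceps with 2 counts in pgWAT, and Fbxo32 (atrogin-1) was at 1415 to 2847 CPM (median 1729) and 26.8 to 40.7 CPM (median 33.8) (difference 5.82). Ctsl, a lysosomal protease, was higher in pgWAT by -1.26. Of 34 proteasome genes, 31 were higher in quadriceps and 2 in pgWAT, with a median of 0.99 (18 and 7 with library totals alone, and a median of 0.24), and with Psmd8, a regulatory particle subunit, at 1.72.

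Cytosolic ribosomal proteins differed little: 58 of 71 tested were higher in quadriceps, but 2 by the 2-fold rule, and the median of 0.57 was −0.17 with library totals alone and −0.68 with the 6 h pgWAT libraries. Many of these genes have pseudogenes that share reads, so single levels are uncertain. Rpl3l, the muscle form of ribosomal protein L3, was at 792 to 1103 CPM (median 926) in quadriceps and 0 to 0.623 CPM (median 0) in pgWAT, whereas Rpl3, the general form, was higher in pgWAT by -1.47. The elongation factors divided likewise: Eef1a2 was at 470.2 to 567 CPM (median 530.4) in quadriceps with 1 count in pgWAT, and Eef1a1 was higher in pgWAT by -1.42, a sign that turned to 1.12 with the 6 h libraries. Collagens and other matrix genes were higher in pgWAT for 17 of 18 (median -2.10). Col15a1, a basement membrane collagen, was at 11.8 to 44.5 CPM (median 23.6) in quadriceps and 342 to 579.7 CPM (median 439.5) in pgWAT (difference -4.05), and Lama4, a laminin of vessels and adipocytes, differed by -2.81.

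Hox genes, which record a cell's position along the body axis during development, separated by their number within a cluster. Of 39 listed, 20 were tested, and 5 were higher in quadriceps and 13 in pgWAT. The 5 that were higher in quadriceps were Hoxa9, Hoxa10, Hoxc9, Hoxc10 and Hoxc11, from the posterior end of the HoxA and HoxC clusters, and the 13 that were higher in pgWAT were all numbered 8 or below. This grouping by number was seen after the values. Hoxc10 (chr15:102966796-102971893 on GRCm38) was at 182 to 291 CPM (median 224) in quadriceps and 0 to 1.25 CPM (median 0.303) in pgWAT (difference 8.99 ± 0.23, edgeR adjusted p = 1.17e-23). Its exons overlap those annotated to Hoxc5 on the same strand, and Hoxc5 had 50 counts in quadriceps and 907 in pgWAT. Hoxc11 had no count in pgWAT and was at least 101-fold higher in quadriceps. Hoxa10 differed by 6.26 (7.64 without pgWAT library 1) and Hoxa9 by 4.07 (4.90 without pgWAT library 9), and Hoxc9, at 43.3 to 106 CPM (median 78.3) and 5.74 to 34.3 CPM (median 15.8), by 2.14. Hoxc8, the gene before it in the cluster, went the other way at 10.5 to 28.9 CPM (median 22.8) in quadriceps and 106 to 358 CPM (median 252) in pgWAT (difference -3.50). In the HoxB cluster, Hoxb8 and Hoxb4 were higher in pgWAT by -3.80 and -3.58.

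Markers of other cell types describe what else the tissues held. Macrophage markers were higher in pgWAT for 10 of 10 tested (median -1.75), with summed levels of 263 to 487 CPM in quadriceps and 643 to 1681 CPM in pgWAT. Lyz2, lysozyme, and Ctss, cathepsin S, differed by -1.84 and -2.23. Endothelial markers were higher in pgWAT for 9 of 10 (median -0.91). Kdr, the main receptor of VEGF, was at 55.4 to 109.8 CPM (median 90.2) in quadriceps and 197 to 309 CPM (median 279.8) in pgWAT (difference -1.54), whereas Flt1, the other VEGF receptor, was higher in quadriceps by 0.95, a difference that was 0.21 and not called with library totals alone. Fibroblast markers had a median of -0.73 and smooth muscle markers of -0.35, the cell type lists with medians closest to 0. Of the lymphocyte markers only Ighm, the heavy chain of immunoglobulin M, was tested (-1.71).

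Some markers were at or near 0 in one tissue. Wt1 and Upk3b, markers of the mesothelium that covers abdominal fat, had no count in quadriceps and were at 5.57 to 38.6 CPM (median 12.9) and 4.90 to 36.1 CPM (median 15.3) in pgWAT, at least 61.8-fold and 60.1-fold higher against 3 counts over the 10 quadriceps libraries. Thbs4, a matrix protein of tendon and muscle, was at 87.95 to 201 CPM (median 146) in quadriceps and 0 to 6.99 CPM (median 0.428) in pgWAT (difference 6.64, and 8.44 without pgWAT library 9). Of 6 satellite cell markers 3 were tested: Chodl (difference 7.49) and Cdh15 (at least 82.96-fold) were higher in quadriceps, and Vcam1, which endothelial and stromal cells also make, was higher in pgWAT (difference −1.57). Pax7, Myf5 and Calcr were too low for the test, with 34, 35 and 11 counts in quadriceps and none in pgWAT. The summed level of the 6 was 62.8 to 121 CPM in quadriceps and 27.5 to 69.9 CPM in pgWAT. Lrp2 and Cldn10, found in duct epithelium of the male tract, reached 91.9 and 92.9 CPM in pgWAT library 9. Alb, albumin, was at 16.2 to 557 CPM (median 43.1) in pgWAT and at 79.2 CPM in quadriceps library 2, with at most 1.20 CPM in the other 9.

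Among genes outside all lists, the lowest p-values on either side picked out the following. Toward quadriceps these included Mylk4, a myosin light chain kinase, with a difference of 13.40 ± 0.22 (edgeR adjusted p = 8.12e-28), Klhl31, a kelch protein of muscle (11.91, and 12.62 without pgWAT library 2), Rbfox1, a splicing regulator (10.55), and Tbx15, a developmental transcription factor (11.74). Tbx15 was at 621 to 853 CPM (median 828) in quadriceps and 0 to 0.623 CPM (median 0) in pgWAT. Toward pgWAT they included Ccdc80, a secreted protein of adipocytes (-3.58), Sncg, synuclein gamma (-5.68), Fads3, a desaturase family member (-5.71), and Tuba1a, an alpha-tubulin with close paralogs (-4.27). Tuba1a was at 65.99 to 119.6 CPM (median 102) and 1303 to 2425 CPM (median 1887). The differences toward pgWAT among genes of at least 100 CPM were largest for Slc5a7, the choline transporter, with 1 count in quadriceps, and for Mest, an imprinted gene linked to fat expansion (-8.28). Slc5a7 was at 24.9 to 145 CPM (median 111) in pgWAT. Kcnj15, a potassium channel, and Cd1d1, which presents lipid antigens, followed at -7.02 and -6.84, and Tenm4, a teneurin, was at 173 to 433 CPM (median 329) in pgWAT and 0 to 4.33 CPM (median 3.14) in quadriceps.

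The same contrast in the TG libraries, 10 quadriceps and 9 pgWAT libraries that the WT comparison did not use, gave similar calls. For TG quadriceps library 10 the title names the clamp whereas the treatment label names 1 h. The title was followed, and without this library 7280 WT calls were shared. Of the 8342 WT calls, 7340 were called in the same direction, 88.0% of the WT calls and 92.3% of the 7950 TG calls, and 11 were called in the opposite direction. The TG share called was 81.9% of 9708 genes tested. The 2-fold rule called 17.5% and 21.2% of the genes tested in TG libraries. Of the 2-fold calls toward quadriceps 1629 were shared (87.1% of WT and 95.7% of TG calls), and toward pgWAT 1756 (84.7% and 85.5%), with 0 in opposite directions. Slc2a4 differed by 2.18 in TG and 2.46 in WT libraries, Lep by -6.31 and -6.39, and Ppargc1a by 3.88 and 4.54. The list medians for immediate early genes and glucose uptake were 0.27 and 0.24 in TG and 1.07 and 0.78 in WT libraries, a change that was not tested. Both WT medians depend on the setting. Without the libraries that stood apart the immediate early median was 0.45 in WT, and with library totals alone the glucose uptake median was 0.04. TG mice differ from WT in the Cre through which CNO activates the Gfral neurons.

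Genes that were alike are as much a part of the comparison. Of 2533 genes with at least 50 CPM in both tissues, 581 had a 95% interval of the log2 difference within 0.5 of 0. This count holds under TMM scaling only. The median of all tested genes moved to −0.31 with upper quartile factors and to −0.74 with library totals alone. Gfral had no count in any of the 19 libraries, which allows up to 0.288 CPM over quadriceps and 0.124 CPM over pgWAT. Gdf15, its ligand, was too low for the test, at 0 to 1.65 CPM (median 0.424) in quadriceps and 0.312 to 12.04 CPM (median 3.34) in pgWAT, with overlap.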

How the data were processed

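The deposited tables give unnormalized whole-number read counts for each gene, in 1 table for quadriceps and 1 for pgWAT at 1 h with the same 55414 gene identifiers. Per the submitters' processing notes the authors used STAR 2.7.10, cutadapt 1.18, UMI-tools 1.1.2 and bcl2fastq 2.20.0.422, in no stated order or role. The genome build and annotation of each table, the counting program, its strand setting and whether molecular identifiers were collapsed are not given in the sources used here. Summary lines (5 per table) were left out: gene rows took 74.5% to 76.5% of the table's counts in quadriceps libraries and 62.9% to 70.0% in pgWAT libraries, and reads in no feature 10.6% to 12.4% and 19.1% to 26.4%. Symbols and positions were taken from GENCODE vM21 (GRCm38), which matched 52081 identifiers.

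Libraries were grouped by title. Quadriceps and pgWAT were compared with edgeR 4.0.16 in R 4.3.3: filterByExpr by tissue, TMM scaling, a robust quasi-likelihood fit without covariates, the quasi-likelihood F test and, for differences over 2-fold, glmTreat, each with Benjamini-Hochberg adjustment and a threshold of 0.05. The same was run on TG libraries and with the 6 h pgWAT libraries. Pair ratios were compared with an exact two-sided permutation test. Alternatives were DESeq2 1.42.0, RLE, upper quartile and no scaling factors, other filters, a replicate block, omission of mitochondrial transcripts and omission of libraries. The scripts were tested on simulated counts.

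Gene lists (44) and pairs were chosen with earlier results of these data known; the liver and male tract lists came from such results, so no list is independent evidence. Genes were named by rule: the 10 largest differences of at least 100 CPM in each direction, up to 4 members per list past the 2-fold rule with at least 10 CPM and up to 2 going against their list, all pair members, the leading markers of each cell type, 10 genes outside all lists with the smallest p in each direction, and 10 genes named always, of which a part is given. Some genes and gene pairs that these rules name are not reported here. Myl3, Tnnt1, Myh7, Myl2, Hoxa9, Hoxa10, Hoxc9 and Cidea were added after their values were seen. Of the named genes given, 41 overlap an exon annotated on the opposite strand and 9 one on the same strand, and as the strand setting is not stated their reads may be shared. Of tested libraries, no pair had counts that agreed within sampling noise.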

Additional observations from a re-analysis of the deposited data

Results flagged for a closer look

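Single libraries were flagged where the highest or lowest value of a gene named above stood apart from the others of its tissue by more than Dixon's 95% critical value for that number of libraries. Where values are normally distributed, which was not tested, chance alone flags about 1 in 20 groups. For some flags, such as Pgam2 and Ttn in pgWAT, the other libraries held very low levels. Over 172 genes in both tissues 41 flags were raised, so single flags carry little weight. The 41 include Tnnt1 and Myh7 in quadriceps library 7, Hoxa9 in pgWAT library 9 and Cidea in pgWAT library 5. These genes were added after their values were seen, so their flags cannot be set against the chance rate. Of the 41 flags, 10 were in pgWAT library 9, 14 were in quadriceps libraries 2, 3 and 7, and the others were spread over 12 more libraries.

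In pgWAT library 9, which also had the highest male tract transcripts (215 CPM) and the most genes for 50% of its counts (1302), 10 genes stood apart. It was highest for Slc2a1 (31.5 CPM; others 12.3 to 20.9), Hk1 (56.2; others 15.7 to 23.0), Pgam2 (20.98; others 0 to 0.312), Fabp3 (7.74; others 0 to 2.43), Cxcl14 (20.5), Hoxa9 (5.49; others 0 to 2.18), Rpl3 (113.6) and Cldn10 (92.9; others 0.371 to 34.9). It was lowest for the fat-enriched genes Cd1d1 (267 CPM; others 408 to 511) and Tenm4 (173; others 303 to 433).

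The other pgWAT flags were spread over 7 libraries. Library 2 was highest for the muscle genes Myh4 (10.0 CPM; others 0.312 to 1.48) and Ttn (6.37; others 0 to 1.86). Library 5 was highest for Acta1 (42.7 CPM), Sncg (281), Fads3 (393) and Cidea (13.7), library 4 for Pdk4 (4.49) and Ucp3 (20.2), library 8 for Cfd (2850), library 3 for Cebpd (107), library 6 for Atf3 (22.3) and library 7 for Alb (557; others 16.2 to 118).

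Quadriceps library 2, with the highest inducible heat shock transcripts, was highest for Atf3 (458 CPM; others 10.5 to 220), Hspb3 (65.8), Myod1 (116; others 32.8 to 69.2), Alb (79.2; others 0 to 1.20) and Rbp4 (13.4; others 1.31 to 6.87). Library 3, with the highest Ucp1 (81.9 CPM), was highest for the adipocyte genes Adipoq (186; others 46.9 to 106), Lipe (80.7), Dgat2 (69.9) and Prkar2b (75.9; others 14.1 to 38.2) and for Lama4 (28.9). Library 7 was highest for the slow fibre genes Atp2a2 (149 CPM; others 39.4 to 92.6), Tpm3 (75.1; others 22.3 to 43.8), Tnnt1 (70.4; others 1.65 to 15.7) and Myh7 (41.1; others 0 to 15.7).

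Other quadriceps flags were single genes. Pgam2 was highest in library 1 (2051 CPM), Cd36 in library 9 (546) and Acacb in library 8 (252). Kdr was lowest in library 4 (55.4 CPM; others 81.0 to 110) and Tbx15 in library 6 (621; others 732 to 853). What set these libraries apart was not tested.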

How the results depend on the processing

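The counts of genes higher in quadriceps and in pgWAT were 4148 and 4194, and by the 2-fold rule 1871 and 2074. With library totals alone they were 2203 and 6522, and 1022 and 3761, and without a filter beyond 1 count (27065 genes tested) pgWAT was higher for 6910 and 3560. These are the only count results that moved over 1.5 times; the shift of all genes behind the first is given in the report. Leaving out each library in turn gave 3950 to 4215 and 4126 to 4237 calls, and 1746 to 1911 and 2025 to 2104 by the 2-fold rule. The labels state no pairing by replicate number, and they describe the mice differently: clamped for quadriceps and 1 h after CNO for pgWAT. Correlation could not settle whether the numbers pair the libraries. Same-numbered libraries correlated at −0.19 to 0.22 in their deviations from the tissue means, but differently numbered libraries were not compared. The fit with a replicate block gave 4093 and 4111, and 1850 and 2040, calls. DESeq2 called 4006 and 4338 genes, and 1587 and 1824 by its 2-fold rule. Signs turned for Slc2a1 (-0.36), Insr (-0.30), Nr3c1 (-0.47) and Prkar1a (-0.66) with library totals alone, for Nr3c1 (-0.0331) and Prkar1a (-0.22) with upper quartile factors, for Prkar1a (-0.0269) without the libraries that stood apart, and for mt-Cytb (-0.24), Dbp (-1.12) and Eef1a1 (1.12) with the 6 h pgWAT libraries, which came from another kit and time. The cause was not tested for the last 3. Of the pairs, 21 of 21 were called with 0.5 CPM added and with the 6 h libraries, and 20 with 5 CPM added and in TG libraries (Ldha/Ldhb, adjusted p = 0.120, exact permutation). Leaving out the libraries that stood apart was chosen after the data were seen. Over 4770 combinations of named gene and alternative, 4729 kept their direction and their side of the threshold, 25 lost the call, 6 gained it and 10 turned sign. Depth limits low genes: 3 counts correspond to 0.288 CPM over the quadriceps and 0.124 CPM over the pgWAT libraries, counting error only.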
